A study of Arabidopsis thaliana with 6 samples.

Results

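AT5G60250 is an Arabidopsis thaliana gene on chromosome 5 that is annotated as a RING-type zinc finger gene. It is the 1 gene described here, out of 13286 genes that could be named on the arrays. It was taken as the single probe set annotated to this locus alone, and it was selected on its own values on the 6 arrays, which lay near the floor of the measurement in the wild type and higher in the mutant. Those values are therefore given as a description without a test. Seedlings of the mutant esd7-1 were compared with seedlings of Ler (Landsberg erecta), the wild type of the same accession. Each genotype had 3 arrays, and each array was made from RNA of an independent pool of plants. All plants were 14 days old, grew on soil in short days and were harvested 8 h after dawn. The labels name no treatment, and the genotype is the only labelled difference between the groups. The mutant is represented by 1 allele, and whole seedlings were extracted, so a change in the share of a tissue and a change of transcript per cell cannot be told apart.

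RING-type zinc fingers are protein modules in which spaced cysteine and histidine residues hold zinc ions. Many RING proteins act as E3 ubiquitin ligases, which bring a ubiquitin-conjugating enzyme to a substrate protein and so mark that protein for degradation or altered function. ESD7 encodes the catalytic subunit of DNA polymerase epsilon, which copies the leading strand during replication, and esd7-1 plants are known to flower early. In plants, damaged or stalled DNA is sensed by the kinases ATM and ATR, which act on the transcription factor SOG1, and SOG1 in turn switches on a set of repair and cell cycle genes. ESD7 itself was not analysed here, so the mutant label was not checked against its transcript.

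AT5G60250 read 5.82, 5.87 and 4.90 on esd7-1 replicates 1, 2 and 3, as log2 values after RMA, a procedure that corrects background, equalises the arrays and summarises the probes of a probe set. It read 3.78, 3.74 and 3.67 on Ler replicates 1, 2 and 3. All 3 mutant arrays lay above all 3 wild-type arrays, and the lowest mutant value was 1.12 above the highest wild-type value. The group means were 5.53 ± 0.55 (SD, n = 3) for the mutant and 3.73 ± 0.06 (SD, n = 3) for the wild type. The log2 difference was 1.80, or 3.48-fold on the linear RMA scale. RMA compresses values near the floor, so the fold is a value on that scale and not a ratio of transcript numbers.

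**Figure D1:**
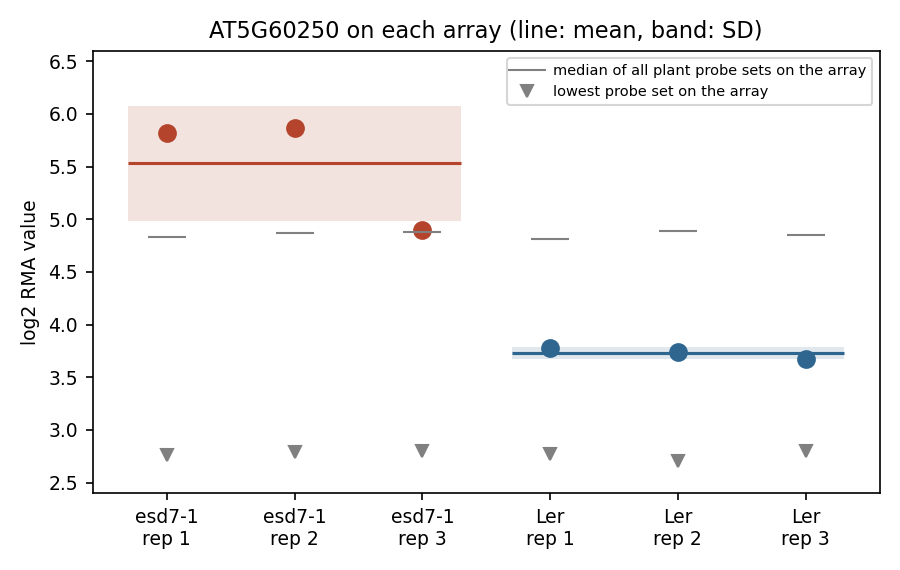
Log2 RMA value of AT5G60250 (vertical axis) on each of the 6 arrays. Points are arrays, coloured lines and bands are group means and SD (n = 3), grey bars are the median of all plant probe sets on each array and grey triangles the lowest probe set. The wild-type points sit between 3.67 and 3.78, below the array medians, and the mutant points between 4.90 and 5.87.

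The position of the signal within each array differed in the same way. In Ler the probe set ranked at percentiles 23.9, 24.1 and 21.3 of the 22746 plant probe sets on replicates 1, 2 and 3. In esd7-1 it ranked at percentiles 63.8, 63.1 and 50.4. Against the array median it was lower by 1.03 to 1.18 on the Ler arrays, while it was 0.99 and 1.00 above the median on esd7-1 replicates 1 and 2 and 0.02 above it on replicate 3. A rank among probe sets reflects probe brightness as well as transcript level, so it places the signal on the array and does not order genes by abundance. The lowest probe set read 2.71 to 2.80 on the 6 arrays, and the wild-type signal lay 0.87 to 1.03 log2 units above it.

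The spread of AT5G60250 differed between the genotypes. Its 3 Ler values spanned 0.11, and 14.7% of probe sets had a smaller SD in Ler, where the median SD was 0.14. Its 3 esd7-1 values spanned 0.97. The mutant SD exceeded that of 93.4% of probe sets, whose median SD in esd7-1 was 0.19. Among the 1874 other probe sets with a Ler mean within 0.1 of its own, 20.3% had a smaller SD in Ler and 99.1% in esd7-1. These probe sets were matched on the Ler level alone. Their median log2 difference was 0.08, against 1.80 for AT5G60250, so the share in esd7-1 compares unlike mutant levels. Replicate 3 carried the mutant spread of AT5G60250, since it read 0.94 below the mean of replicates 1 and 2, which differed from each other by far less.

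A low level in the wild type was common, and a large difference from such a level was not. In 5175 probe sets, or 22.8%, the mean in Ler was lower than that of AT5G60250. The Ler mean of 1874 other probe sets lay within 0.1 of it, above or below. Their log2 differences between esd7-1 and Ler ran from -0.30 to 1.18, with a median of 0.08. Of these 1874, 1 differed by at least 1, an unnamed probe set that read 4.94, 5.20 and 4.58 in esd7-1 and 3.65, 3.75 and 3.79 in Ler. Over all probe sets 20 of 22746, or 0.0879%, were higher in esd7-1 by at least 1, and AT5G60250 had the difference at rank 3. Among probe sets that name 1 gene it had rank 2, after 2A6 (AT1G03410), a dioxygenase-family gene with a difference of 2.02. AT5G60250 was selected for a low Ler value and a higher mutant value, so these ranks are a description and not a finding. The Ler mean is also part of the difference, so matching on it can shift the differences of the 1874. Their median of 0.08 stood against 0.007 over all probe sets.

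**Figure D2:**
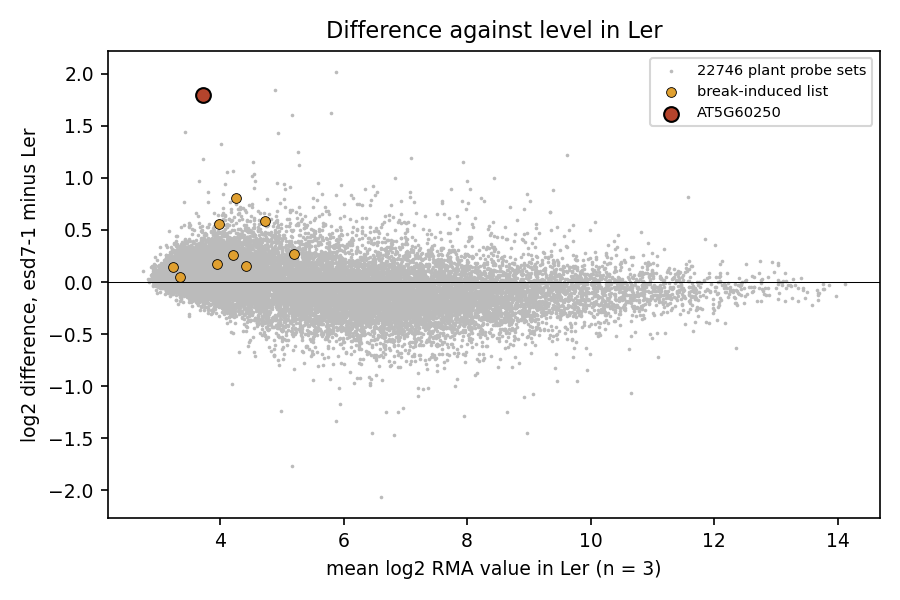
Log2 difference of esd7-1 minus Ler (vertical axis) against the mean log2 value in Ler (horizontal axis, n = 3) for all 22746 plant probe sets in grey, with AT5G60250 in red and the 9 measured genes of the break-induced list in yellow. AT5G60250 lies at a Ler mean of 3.73 and a difference of 1.80, above the other probe sets of that level, whose highest difference was 1.18. It was selected on these values.

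An array of each genotype differed from the rest in its control RNA. Bacterial poly-A control probe sets averaged 6.18 on esd7-1 replicate 3 and 6.84 on Ler replicate 2, against 5.47 to 5.60 on the remaining 4 arrays. The 9 root marker genes that were measured, of 28 listed, averaged 6.66 and 5.75 on these arrays, against 4.77 to 5.08 on the others, and their part in the results was not tested. By genotype the average of these 9 genes ranged from 4.77 to 6.66 in esd7-1 and from 4.79 to 5.75 in Ler. Limma called 0 of the 9, and their median log2 difference between genotypes was 0.23, which rested on single arrays. It was -0.24 without esd7-1 replicate 3, 0.48 without esd7-1 replicate 2 and 0.05 without the 2 arrays with the high control. The root peroxidase gene AT4G30170 had the widest range, at 4.47, 3.48 and 7.90 in esd7-1 and 3.68, 5.63 and 3.33 in Ler, while GH9C1 and AT2G39430 differed by 0.12 and 0.23. The 3 photosynthesis genes of green tissue that were measured, of 32 listed, averaged 13.09 to 13.38 on all 6 arrays, so transcripts of green tissue were abundant in both genotypes. RCA, PSAN and LHCB4.1, the 3 genes in question, differed by -0.10, -0.06 and 0.01, and limma called 0 of them. A second division ran by replicate number, since the control for large-subunit ribosomal RNA read 8.99 and 9.66 on replicate 1 of esd7-1 and of Ler, against 4.69 to 5.77 on the other 4 arrays. AT5G60250 read 5.82 and 3.78 on these first replicates. Medians of all plant probe sets lay between 4.81 and 4.89.

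AT5G60250 had its lowest mutant value on the mutant array with the high control, and its value on the wild-type array with the high control was 0.015 above the mean of the other Ler arrays. Among the 4 other arrays the difference was 2.12, from means of 5.84 and 3.73. Between the 2 arrays with the high control it was 1.16. Because the gene was selected with all its mutant values above all its wild-type values, any such division of the arrays gives a higher mutant.

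In 9 probe sets, esd7-1 replicates 1 and 2 each exceeded every Ler array by at least 1. AT5G60250 was among them, at 2.12 above the Ler mean on replicates 1 and 2 and at 1.17 on replicate 3, which was 55.3% of the former. The other 8 probe sets were taken here on replicates 1 and 2 against every Ler array, without replicate 3. In all 8 replicate 3 also exceeded every Ler array. The choice favours low Ler values, so this order is not read as a finding. Taking probe sets for high values on 2 arrays favours a lower value on the third, so a lower replicate 3 is not read as a finding. For these 8 the difference on replicate 3 was 27.9% to 131% of that on replicates 1 and 2. The highest share belonged to 2A6, and AT1G59265, the other named gene, kept 57.1%.

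The limma fit across all probe sets gives the background for other genes. Limma called 0 of 22746 probe sets (0.0%) between esd7-1 and Ler at a Benjamini-Hochberg adjusted p of 0.05. The lowest adjusted p in that limma fit was 0.272. At an unadjusted p under 0.05, 521 probe sets (2.29%) were higher and 794 (3.49%) lower in esd7-1. All 3 mutant arrays exceeded all 3 wild-type arrays in 1283 probe sets (5.64%), and the opposite order held in 1295 (5.69%).

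Genes known to be induced by DNA double-strand breaks were read beside AT5G60250, because the mutated gene encodes a replicative polymerase. Of 42 listed genes, 9 had a named probe set, and limma called 0 of the 9, against 0.0% over all probe sets. All 9 were nevertheless read higher in esd7-1 on average, where 51.3% of all probe sets had a difference above 0. Their median log2 difference was 0.26, against 0.007 over all probe sets, and the individual differences ran from 0.05 to 0.80. In 5 of the 9 every mutant array exceeded every wild-type array, against 5.64% of all probe sets. Probe sets as dim as these leaned the same way, since 67.5% of the 11790 with a mean level between 3.30 and 5.33 had a difference above 0, with a median of 0.063, and 7.91% had all mutant arrays above all wild-type arrays. Of the 9 genes, 2 had an unadjusted p below 0.05, where 2.29% of all probe sets did so in that direction. The 9 measured root marker genes also all had a difference above 0, with a median of 0.23. A difference above 0 in every member is therefore not particular to the break-induced list. The 2 lists were unlike in other ways. Every mutant array exceeded every wild-type array in 0 of the 9 root genes. Without esd7-1 replicate 3 the median was -0.24 for the root genes and 0.26 for the break-induced list.

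AT2G47680, a gene of this list, read 5.13, 5.12 and 4.94 in esd7-1 and 4.27, 4.13 and 4.38 in Ler. The genotypes did not overlap. Its means were 5.06 ± 0.11 and 4.26 ± 0.13 (SD, n = 3), which differ by 0.80 on the log2 scale (standard error 0.11, adjusted limma p 0.379). AT4G22960 read 4.58, 4.65 and 4.37 in esd7-1 and 4.04, 4.15 and 3.74 in Ler, a difference of 0.56 with an adjusted limma p of 0.806. AT5G11460 read 5.47, 5.29 and 5.63 in esd7-1 and 5.18, 5.19 and 5.22 in Ler, a difference of 0.27 with an adjusted limma p of 0.846. The mutant and wild-type arrays did not overlap for these genes either, and replicate 3 was the highest mutant array for AT5G11460. AT2G47680 had already been seen as a high gene of these arrays when the list was made. The counts given for the 9 genes include it. Without it, 8 of 8 genes had a difference above 0, with a median of 0.217. In 4 of the 8, every mutant array exceeded every wild-type array. The 2 genes with an unadjusted limma p under 0.05 were AT2G47680 itself and AT4G22960. MND1, which pairs with HOP2 in meiotic recombination, read 4.23, 4.33 and 3.81 in esd7-1 and 3.97, 3.89 and 3.99 in Ler, so that its groups overlapped.

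**Figure D3:**
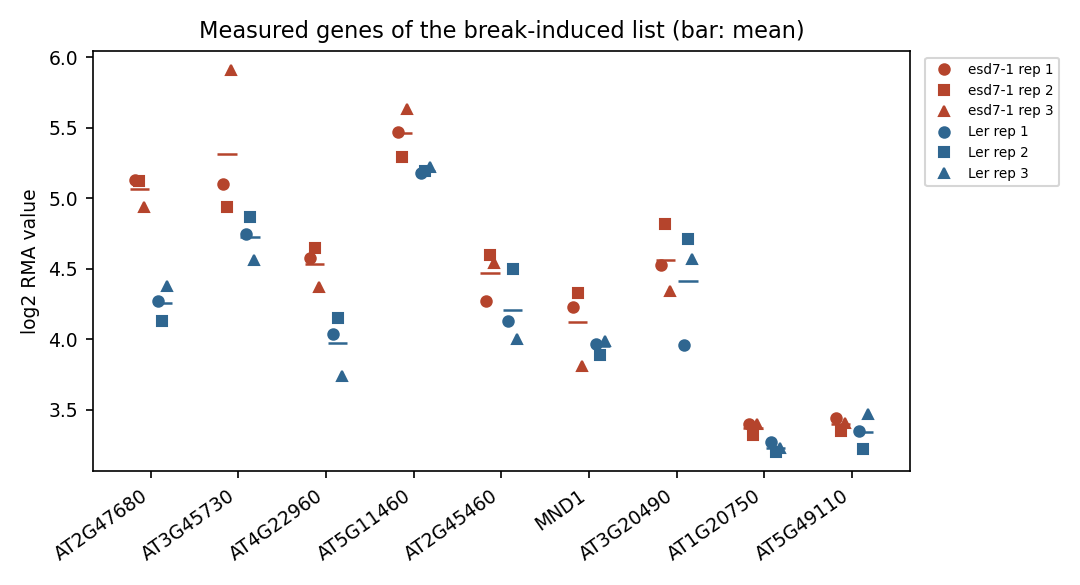
Log2 RMA values (vertical axis) of the 9 measured genes of the break-induced list, ordered by difference, with esd7-1 arrays in red and Ler arrays in blue, marker shape giving the replicate and bars the group means (n = 3). AT2G47680, at the left, has the largest difference (0.80), and the groups of 4 of the 9 genes overlap.

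Sensors, checkpoint and repair proteins of the same response showed no common direction. Of 68 listed genes, 17 were measured and limma called 0 of them. Differences were above 0 for 9 and below 0 for 8, with a median of 0.003, where 51.3% of all probe sets had a difference above 0. The median was 0.098 without esd7-1 replicate 3 and 0.095 with array weights or without dim probe sets. All mutant arrays exceeded all wild-type arrays in 4 of the 17, against 5.64% of all probe sets, and lay below them in 1, against 5.69%. At an unadjusted limma p under 0.05, 2 were higher and 0 lower, against 2.29% and 3.49% of all probe sets. RAD9, a subunit of the checkpoint clamp that is loaded at damaged DNA, read 4.79, 4.48 and 4.81 in esd7-1 and 4.37 on every Ler array, a difference of 0.32 with an adjusted limma p of 0.846. RECQ5, a RecQ-type helicase gene, differed by 0.34 and DRT100 by 0.24, each with an adjusted limma p of 0.846. All mutant arrays exceeded all wild-type arrays for these 3 genes. On the lower side AT3G50880 differed by -0.59, on mutant values of 6.08, 6.40 and 5.29 against 6.37, 6.61 and 6.57 in Ler, which overlapped. Its difference was -0.28 without esd7-1 replicate 3 and -0.23 without the 2 arrays with the high control. The RecQ helicase gene RECQ4A differed by -0.12 and RAD5A, which acts in the tolerance of replication blocks, by -0.13. The differences of the 17 genes ran from -0.59 to 0.35.

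Other RING genes could be read only where the gene table carries the word RING among their names, which gave 46 loci and 2 measured genes besides AT5G60250. BRH1, a RING-H2 gene known for its response to brassinosteroids, read 8.55, 8.74 and 8.70 in esd7-1 and 8.44, 8.41 and 8.13 in Ler. Its groups did not overlap, and its difference was 0.34 with an adjusted limma p of 0.845. RHF1A, which takes part in gametophyte development, read 4.20, 4.12 and 3.94 in esd7-1 and 4.34, 4.18 and 4.38 in Ler, a difference of -0.21 with an adjusted limma p of 0.846. Limma called neither gene.

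The measured loci beside AT5G60250 on the chromosome had smaller differences between the genotypes. Of the 5 protein-coding loci on each side, 4 were measured. AT5G60240, the next locus on one side, read 4.28, 4.22 and 4.48 in esd7-1 and 4.30, 4.29 and 4.02 in Ler, a difference of 0.12. AT5G60260, the next on the other side, read 4.85, 3.93 and 4.72 in esd7-1 and 4.38, 4.07 and 4.17 in Ler, a difference of 0.29. That difference was 0.58 without esd7-1 replicate 2, 0.12 without esd7-1 replicate 1 and 0.18 without esd7-1 replicate 3. Both genes overlapped between the genotypes. The tetraspanin gene TET4 (AT5G60220) differed by 0.17 and AT5G60290 by -0.06. Adjusted limma p-values of the 4 lay between 0.846 and 0.914.

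**Figure D4:**
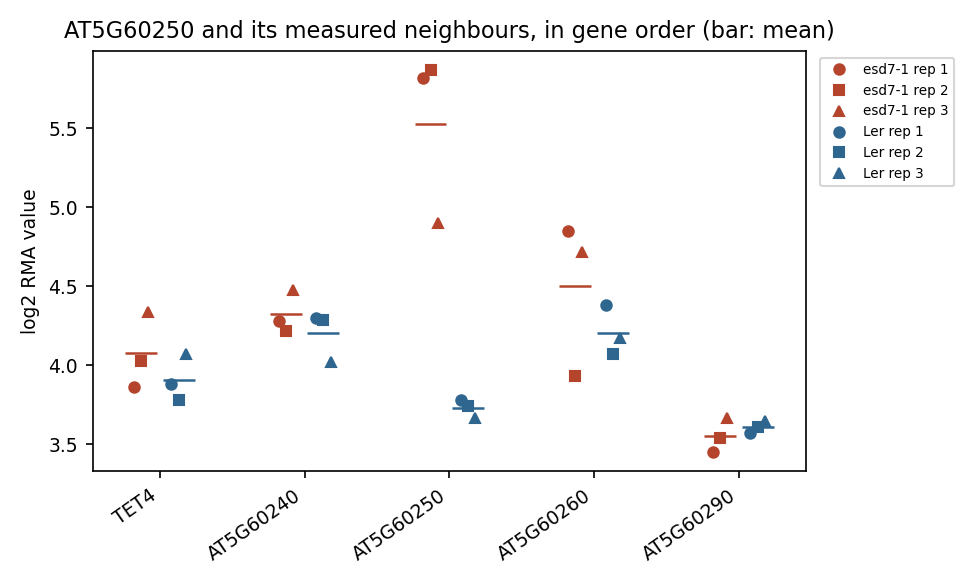
Log2 RMA values (vertical axis) of AT5G60250 and its 4 measured neighbours in gene order, with esd7-1 arrays in red and Ler arrays in blue, marker shape giving the replicate and bars the group means (n = 3). AT5G60250 differs by 1.80, and the 4 neighbours differ by -0.06 to 0.29.

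The loci whose values most resembled those of AT5G60250 were ranked by Pearson's r over the 6 arrays, among 1544 probe sets that name 1 other gene and range over at least 1 log2 unit. The 6 points are 2 genotypes of 3 arrays, so a genotype difference by itself raises r, and r is given as a description. The spread within the genotypes counts as well, since AT4G30170, with a difference of 1.07, had an r of 0.047. The 5 highest were AT1G59265 at 0.986, AT2G47680 at 0.964, AT1G42705 at 0.940, AT4G05640 at 0.927 and AT5G23910 at 0.926. The next value was 0.919. AT1G59265 read 4.90, 5.34 and 4.40 in esd7-1 and 3.37, 3.47 and 3.48 in Ler, with a difference of 1.44. Every mutant value lay above every wild-type value, and the Ler values spanned less than the mutant values.

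Of these 5 loci, 3 are classed as pseudogenes in the gene table, namely AT1G59265, AT1G42705 and AT4G05640. Pseudogenes made up 21 of the 1544 probe sets compared, or 1.36%, and 923 of all 13286 named genes, or 6.95%. The 5 loci were chosen by r on these arrays, so their share of pseudogenes is not read as a finding. The probe sets of AT1G59265 and AT1G42705 carry a suffix that marks probes shared between transcripts, so their signal may come from more than the named locus. AT1G42705 read 4.93, 5.33 and 4.78 in esd7-1 and 4.23, 4.47 and 4.25 in Ler. AT4G05640 read 5.11, 4.51 and 4.37 in esd7-1 and 3.78, 3.78 and 3.84 in Ler. In both, every mutant array lay above every wild-type array, with differences of 0.70 and 0.86. The protein-coding locus AT5G23910 read 4.70, 4.92 and 4.21 in esd7-1 and 3.97, 3.78 and 4.14 in Ler, a difference of 0.65.

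The 3 loci with the most opposite pattern were AT3G56290 at an r of -0.985, AT1G76600 at -0.965 and AT1G18460 at -0.902. AT3G56290 read 8.63, 8.53 and 9.06 in esd7-1 and 9.44, 9.33 and 9.53 in Ler, a difference of -0.69. AT1G76600 read 7.93, 8.01 and 8.24 in esd7-1 and 8.73, 8.95 and 8.67 in Ler, a difference of -0.72. AT1G18460 differed by -0.65. All 3 were lower on every mutant array than on any wild-type array. In the pattern that the 8 loci were ranked on, the genotypes do not overlap and replicate 3 lies between the other mutant arrays and Ler. Neither trait is therefore a finding about these loci. Limma called 0 of the 8 loci.

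**Figure D5:**
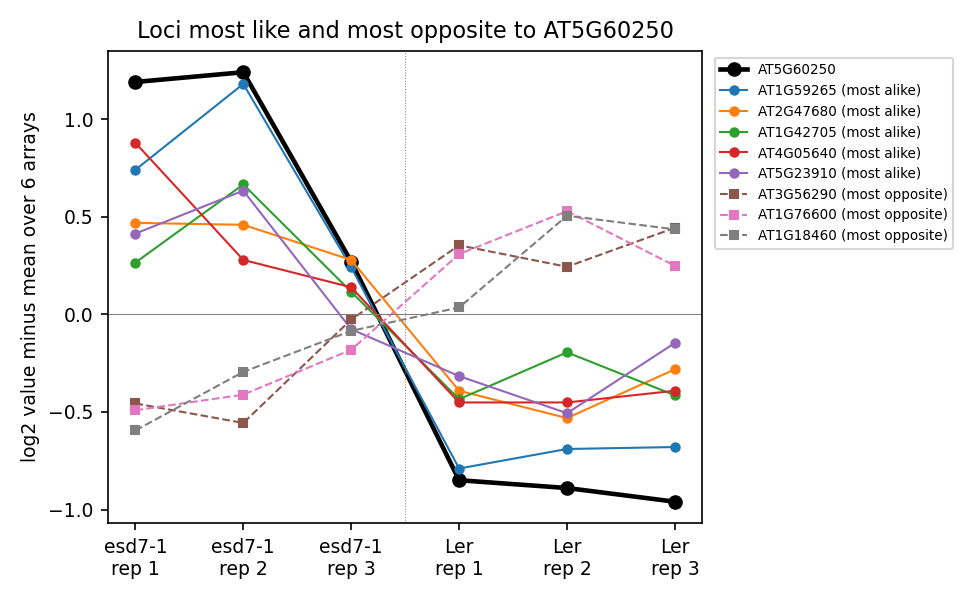
Log2 value minus the mean over the 6 arrays (vertical axis) for AT5G60250 (black), the 5 most alike loci (solid lines) and the 3 most opposite loci (dashed lines) on each array. Lines only join the values of 1 locus. AT5G60250 spans more than the others. The loci were chosen for this likeness, so their shared order of arrays, replicate 3 included, comes from the choice.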

How the data were processed

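RNA of 6 seedling samples, 3 esd7-1 and 3 Ler, was measured on Affymetrix arrays, grouped and numbered by their titles. Values were deposited as log2 expression per probe set, and RMA and limma are named without versions per the submitters' processing notes, with other settings not given in the sources used here. The 64 control probe sets were left out, and 22746 plant probe sets were tested. In the probe annotation, 13513 carry 1 gene name, 503 carry several and 8730 have none listed; 13436 matched the RefSeq gene table (TAIR10.1), used for names, classes and gene order. The brightest probe set stood for a gene in lists. A two-sided limma test (version 3.58.1, R 4.3.3, genotype alone in the model) was adjusted by Benjamini-Hochberg over all 22746. In 10 runs of simulated data it recovered 56.7% of 2-fold and 89.7% of 4-fold changes. The simulated noise was normal and independent between probe sets. It lacked the array divisions described above, so these shares need not hold for these arrays.

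The gene and the lists were chosen with earlier results of these data known. Genes named are AT5G60250, the 5 most alike and 3 most opposite loci, up to 3 list members per direction with the smallest p, and the measured neighbours; MND1 and 2A6, and the unnamed probe set, were added after their values were seen. Planned comparisons of related proteins and of promoter letters were not made, because no sequences were used here. RING genes were taken by name, since no gene descriptions were used here. 1 listed locus was dropped because its symbol names another function. The number of arrays limits the precision.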

Additional observations from a re-analysis of the deposited data

How the results depend on the processing

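The difference of AT5G60250 moved by less than its spread between replicates under every setting tried, from 1.63 to 2.12, including the replicate block, at 1.80, and the scalings. With every number present in both genotypes, the block leaves this difference unchanged by design. Calls by limma over all probe sets numbered 0, and 33 with array weights, 4 with a term for the 2 arrays with a high poly-A control, 4 without those arrays, and 0 to 1 with each array left out. No call is given for AT5G60250, which was chosen on these values. With the replicate block the count stayed at 0, and the numbers did not pair all arrays: correlations of same-numbered departures from the genotype means were 0.54 (number 1, alike also in the control for large-subunit ribosomal RNA), -0.41 (number 2) and -0.60 (number 3). With array weights, which gave esd7-1 replicate 1 a weight of 3.71 and replicate 3 a weight of 0.25, the break-induced list had 1 call, AT2G47680, at an adjusted p of 0.0354 (0.379 with all arrays weighted equally). Of the 9 genes of that list, 8 or 9 had a difference above 0 under the settings that kept all 9, and the median ran from 0.193 to 0.365. The 8 loci named for a like or opposite pattern depend on the choices. Of the 8, 1 remained without a minimum range, 2 with Spearman's rho, 2 without the 2 arrays with a high poly-A control, 5 after a second quantile normalization, and 3 to 5 with each array left out. Small differences that turned sign, none of them called, were GH9C1 at -0.02 and TET4 at -0.03 without those 2 arrays. With each array left out the ranges were LHCB4.1 -0.060 to 0.135, RCA -0.187 to 0.0083, AT2G39430 -0.022 to 0.393, GH9C1 -0.037 to 0.238 and AT4G30170 -0.238 to 1.972; the cause was not tested.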
